A study of Mus musculus with 8 samples.

Results

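The genes described here encode 10 proteins of T cell inhibition: Pdcd1 (PD-1), Ctla4, Lag3, Havcr2 (TIM-3), Tigit, Btla, Cd160, Cd200, Cd274 (PD-L1) and Izumo1r (folate receptor 4). They were taken by gene symbol from the deposited tables, where they make up 10 of 25078 genes, and all 10 were among the 12428 genes that passed the filter on low counts. Not every one is a receptor that inhibits the cell bearing it. Cd274 and Cd200 encode ligands, and Izumo1r encodes a relative of the folate receptors found on regulatory and anergic CD4 T cells.

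Inhibitory checkpoint receptors are induced on T cells by antigen and restrain them once they meet ligands on other cells. Some do so by recruiting phosphatases through tyrosine motifs in their tails, as PD-1 and BTLA do, and others by competing with an activating receptor for the same ligands, as CTLA-4 does with CD28 and TIGIT with CD226. In graft-versus-host disease (GVHD), where donor T cells attack recipient tissue, the PD-1 pathway is known to restrain the donor cells.

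RNA-seq was carried out on donor T cells that were sorted out of recipient spleens on day 6 following hematopoietic cell transplantation (HCT). Recipients were BALB/c mice that had been lethally irradiated and had received T cell-depleted bone marrow of WT C57BL/6 donors together with C57BL/6 T cells, either WT or lacking STAT3 (STAT3KO). In the STAT3KO donors Cre recombinase, expressed from Cd4 regulatory sequences, removes a floxed segment of Stat3, and because these sequences are active in thymocytes that carry both coreceptors, CD8 T cells lose the gene as well as CD4 T cells. Donor cells were recognised by the donor MHC molecule H-2Kb and by TCRβ and then divided by CD4 or CD8, which gave 4 groups of 2 libraries each, CD4 T cells from WT or STAT3KO donors and CD8 T cells from the same kinds of donor. Each library pooled cells of several recipients, so replicates are pools and not single mice. No T cells from before transplantation enter the comparisons, so every value describes T cells that had already met recipient tissue. The comparisons ask how loss of STAT3 altered the checkpoint genes in each cell type, whether the alteration differed between CD4 and CD8 T cells, and how the cell types differed within a genotype.

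The libraries held between 20171396 and 23282757 counts. Values per library below are CPM (depth-scaled counts, after TMM scaling of the library size) or RPKM where genes are compared with each other, since only RPKM takes gene length into account. The targeted gene Stat3 had 436 and 428 CPM in WT CD4, 138 and 141 CPM in STAT3KO CD4, 431 and 435 CPM in WT CD8, and 120 and 143 CPM in STAT3KO CD8 libraries. Cd4 stood between 1360 and 1602 CPM in the CD4 libraries and between 1.04 and 8.16 CPM in the CD8 libraries, and Cd8a between 819 and 983 CPM in the CD8 libraries and between 1.70 and 16 CPM in the CD4 libraries. In each group the coreceptor of the other cell type was higher in replicate 2. So was Csf1r, a macrophage gene, which lay between 0.562 and 2.55 CPM in the replicate 1 libraries and between 11.4 and 18.1 CPM in the replicate 2 libraries. Markers of B cells summed to at most 18.0 CPM and those of erythroid cells to at most 5.73 CPM. The part of these differences between replicate numbers in the results below was not tested.

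Ctla4, which encodes the high-affinity competitor of CD28 for CD80 and CD86, was the most abundant of the 10 genes by RPKM in every group. It had 736 and 933 RPKM in WT CD4, 574 and 821 RPKM in STAT3KO CD4, 425 and 548 RPKM in WT CD8, and 414 and 625 RPKM in STAT3KO CD8 libraries. It made up between 29.2% and 50.9% of the summed RPKM of the 10 genes and stood between the percentiles 99.3 and 99.8 among all genes tested. The sum over the 10 genes was 2032 and 2299 RPKM in WT CD4, 1407 and 1613 RPKM in STAT3KO CD4, 1455 and 1447 RPKM in WT CD8, and 1188 and 1384 RPKM in STAT3KO CD8 libraries. The sum was therefore lower in both STAT3KO libraries than in both WT libraries of the same cell type.

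**Figure D1:**
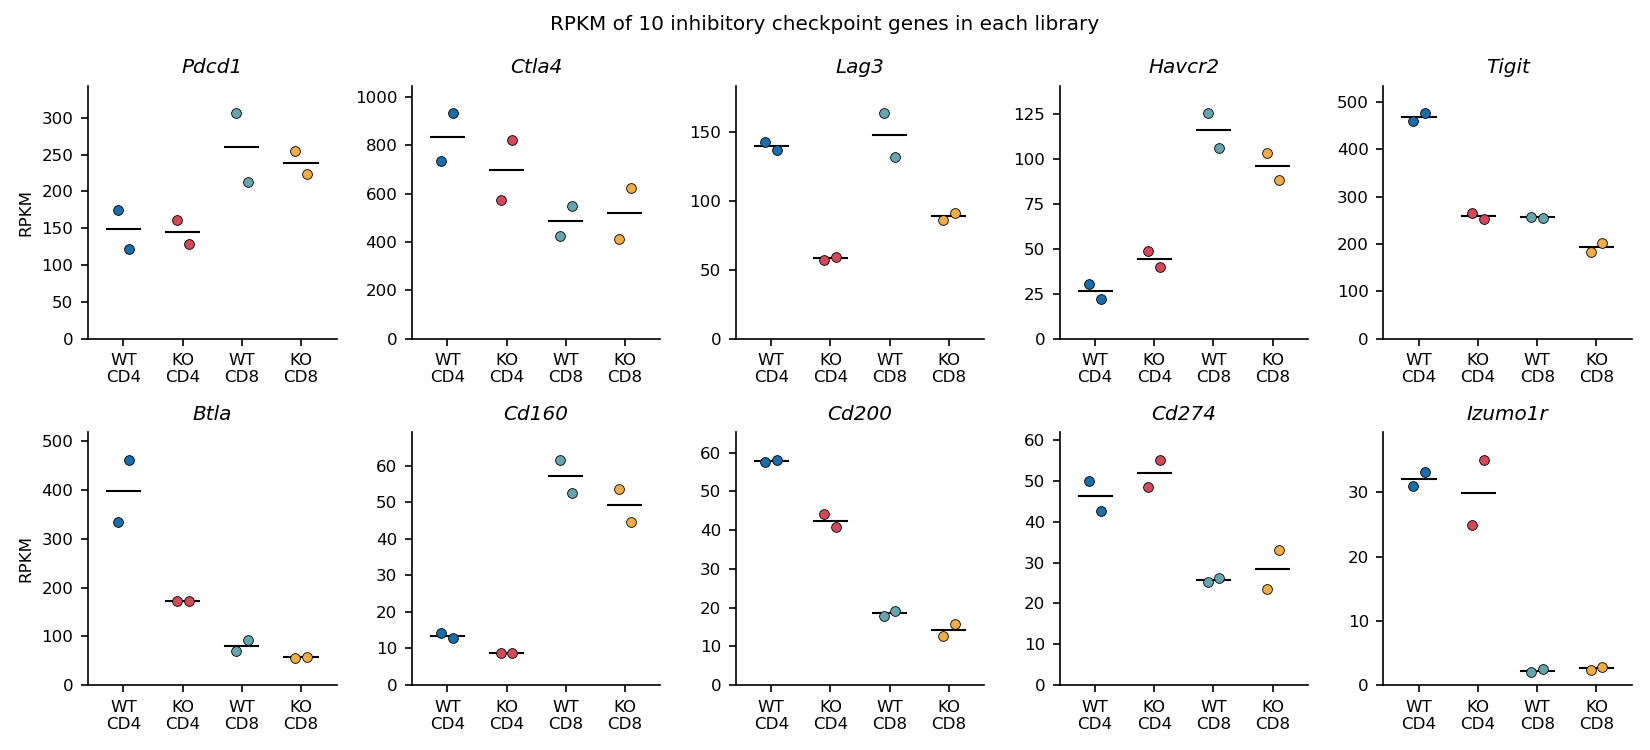
RPKM of each checkpoint gene (vertical axis, linear, starting at 0) in the 8 libraries, arranged by group along the horizontal axis. Points are libraries, with replicate 1 to the left of replicate 2, and black lines are means of 2 libraries. Lag3, Tigit and Btla lie lower in both STAT3KO CD4 libraries than in both WT CD4 libraries, and Havcr2 lies higher.

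Below Ctla4 the order by RPKM depended on the cell type. In WT CD4 T cells Tigit (460 and 477 RPKM) and Btla (335 and 462 RPKM) followed with overlapping ranges, and then Pdcd1 (122 and 175 RPKM) and Lag3 (136 and 142 RPKM), also overlapping. The remaining WT CD4 order was Cd200, Cd274, Izumo1r, Havcr2 and Cd160, from 58.0 down to 13.5 RPKM on average, with no overlap between neighbours. In WT CD8 T cells Pdcd1 (213 and 306 RPKM) and Tigit (256 and 258 RPKM) overlapped in second place, ahead of Lag3, Havcr2, Btla, Cd160, Cd274, Cd200 and Izumo1r, whose neighbouring ranges did not overlap. In STAT3KO CD4 T cells Havcr2 moved ahead of Cd200 and Izumo1r in this order, with 40.1 and 48.6 RPKM against 40.8 and 44.2 RPKM for Cd200, which are overlapping ranges. In STAT3KO CD8 T cells Havcr2 and Lag3 overlapped next, behind Tigit, at 88.2 and 104 RPKM and at 86.0 and 91.4 RPKM.

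Loss of STAT3 in CD4 T cells changed 5 of the 10 genes at an edgeR adjusted p under 0.05: Lag3, Btla, Tigit and Cd160 fell, and Havcr2 rose. Among all genes tested 11.6% were called in this comparison, 6.54% higher and 5.08% lower. The median log2 fold change (log2FC) of the 10 genes was -0.32, against 0.017 over all genes tested.

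Lag3 encodes a receptor related to CD4 that binds MHC class II and fibrinogen-like protein 1. It lies at chr6:124904359-124911705 on the minus strand of mm10. It had 287 and 271 CPM in WT CD4 libraries and 116 and 121 CPM in STAT3KO CD4 libraries. Both STAT3KO libraries were below both WT libraries, and the replicates of each genotype lay close together. Lag3 fell by 57.5% (log2FC -1.23, SE 0.13, 95% interval -1.52 to -0.94, edgeR adjusted p = 0.0018). The CD8 libraries held Lag3 at 328 and 268 CPM in WT and 173 and 187 CPM in STAT3KO libraries, again without overlap. It fell by 39.4% there (log2FC -0.72, SE 0.12, edgeR adjusted p = 0.0338), the only checkpoint gene called in CD8 T cells.

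The call of Lag3 in CD4 T cells was kept under all 16 alternatives, with log2 fold changes between -1.28 and -1.22. In CD8 T cells the direction was kept under all 16, but the call was lost when any CD8 library or either STAT3KO CD4 library was left out, with adjusted p between 0.0816 and 0.186. It was also lost when only the 4 CD8 libraries were fitted (adjusted p = 0.0962). That fit called 37 of 12058 genes tested, against 257 of 12428 in the fit of all 8 libraries.

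Tigit and Btla, which were lower in both STAT3KO CD4 libraries, and Cd200, which is treated further on, all lie on chromosome 16, within the interval chr16:43648861-45409053 of mm10. The 120 bases before the start of each gene, from RefSeq on GRCm38.p6, are shown to let their starts be compared, and each is written 5′ to 3′ on the strand of the gene (chr16:43664185-43664304 minus for Tigit, chr16:45224217-45224336 plus for Btla, chr16:45409054-45409173 minus for Cd200). Capitals mark GGAAA, the core of NFAT sites, on either strand.
Tigit: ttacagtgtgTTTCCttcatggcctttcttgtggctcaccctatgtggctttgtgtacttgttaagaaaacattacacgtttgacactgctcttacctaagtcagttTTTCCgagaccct
Btla: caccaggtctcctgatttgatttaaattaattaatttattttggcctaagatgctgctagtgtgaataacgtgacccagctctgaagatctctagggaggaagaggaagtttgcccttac
Cd200: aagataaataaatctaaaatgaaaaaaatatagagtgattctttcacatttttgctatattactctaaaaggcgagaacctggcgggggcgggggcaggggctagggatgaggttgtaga
Tigit held 2 such matches, both as TTTCC. Within the same 120 bases at least 1 match was held by 31.0% of all 32851 RefSeq mouse promoters. It was held by 3 of 10 promoters of the checkpoint genes, so a match is not shown to be particular to them. A match is a description of the letters and was not tested as a binding site.

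Other sequences were searched for in the 250 bases before the start, in 10 promoters of 9 of the checkpoint genes. Lag3 had no entry among the promoters used, so its start was not searched for any motif. TTCNNNGAA, the palindrome known to be bound by STAT dimers, was found in 1 of these promoters and in 7.02% of all promoters. The match belonged to an alternative start of Cd160 (chr3:96814739-96814763, minus strand), and the motif, given in capitals, begins 234 bases before that start.
Cd160: tctcagtcTTCTTTGAAccttagtg
TGANTCA, the palindrome of AP-1 with any base allowed at its centre, was found in 1 promoter and in 6.75% of all promoters. It was that of Havcr2 (chr11:46454723-46454745, plus strand, 200 bases before the start). The match has T at the centre, where AP-1 sites usually have C or G, so it is not read as an AP-1 site. The motif is again in capitals.
Havcr2: ctttttgtTGATTCAtgtaataa
GAAA followed after 2 bases by another GAAA, a core bound by interferon regulatory factors, was found in none of the 10 promoters and in 2.98% of all promoters. All motifs were searched on both strands.

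Tigit encodes a receptor that binds CD155 (Pvr) and competes with CD226 for it, and lies at chr16:43648861-43664184 on the minus strand. It had 447 and 455 CPM in WT CD4 libraries and 259 and 250 CPM in STAT3KO CD4 libraries. The WT libraries differed from each other by far less than they did from the STAT3KO libraries. Tigit fell by 43.5% (log2FC -0.82, SE 0.10, 95% interval -1.07 to -0.58, edgeR adjusted p = 0.0036), and the call was kept under all 16 alternatives. Among CD8 libraries Tigit had 249 and 250 CPM in WT and 177 and 200 CPM in STAT3KO libraries, which did not overlap. The log2 fold change there was -0.40 (SE 0.10, edgeR adjusted p = 0.0919), which missed the threshold, while DESeq2 gave an adjusted p of 0.00473.

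Btla encodes a receptor for HVEM (Tnfrsf14), and lies at chr16:45224337-45252895 on the plus strand. It had 1091 and 1483 CPM in WT CD4 libraries and 567 and 569 CPM in STAT3KO CD4 libraries. The WT libraries were spread further apart than the STAT3KO libraries, and the groups did not overlap. Btla fell by 55.9% (log2FC -1.18, SE 0.18, 95% interval -1.60 to -0.76, edgeR adjusted p = 0.00711). With STAT3KO CD4 replicate 1 or 2 left out the adjusted p was 0.0568 or 0.0589, so that the call rests on both. Btla had, in CD8 T cells, 227 and 302 CPM in WT and 182 and 192 CPM in STAT3KO libraries (log2FC -0.50, SE 0.18, edgeR adjusted p = 0.184). The values in CD8 T cells did not overlap either, but the difference was not called.

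Cd160 encodes a further receptor for HVEM, found on cytotoxic T cells and NK cells, and lies at chr3:96798763-96829351 on the minus strand. It had 38.1 and 33.4 CPM in WT CD4 libraries and 23.8 and 24.1 CPM in STAT3KO CD4 libraries, its lowest values in any group. Cd160 fell by 33.1% (log2FC -0.58, SE 0.13, edgeR adjusted p = 0.0299). The call was lost when any of the 4 CD4 libraries was left out (adjusted p between 0.0643 and 0.15) and when the CD4 libraries were fitted alone (0.0511). The values of the genotypes overlapped in CD8 T cells, at 163 and 141 CPM in WT and 143 and 121 CPM in STAT3KO libraries (log2FC -0.21, SE 0.13, edgeR adjusted p = 0.431). The annotation places 68 exon bases of Cd160 within exons of Pdzk1 on the opposite strand, and since it is not known whether counting used the strand, reads from these bases cannot be assigned with certainty.

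Havcr2, which encodes TIM-3, a receptor of differentiated interferon-γ-producing T cells and of myeloid cells, moved the other way. It lies at chr11:46454931-46481254 on the plus strand. It had 83.9 and 58.9 CPM in WT CD4 libraries and 134 and 112 CPM in STAT3KO CD4 libraries. Both STAT3KO libraries were above both WT libraries, with a 1.72-fold rise (log2FC 0.78, SE 0.19, 95% interval 0.35 to 1.22, edgeR adjusted p = 0.0363). The call depended on single libraries: without WT CD4 replicate 2 the adjusted p was 0.159, without STAT3KO CD4 replicate 1 it was 0.211, and without STAT3KO CD4 replicate 2 it was 0.0906. It was also lost without either STAT3KO CD8 library (0.0615 and 0.0609) and in the fit of the CD4 libraries alone (0.0665), while the direction was kept in all 16 alternatives. CD8 T cells carried more Havcr2, with 342 and 294 CPM in WT and 284 and 246 CPM in STAT3KO libraries, so that there the STAT3KO libraries were the lower ones. That difference was not called (log2FC -0.26, SE 0.19, edgeR adjusted p = 0.506).

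Because Havcr2 is also a gene of myeloid cells, the markers of these cells were read beside it. The 9 macrophage and monocyte markers summed to between 21.0 and 61.1 CPM in WT CD4 and between 20.3 and 78.2 CPM in STAT3KO CD4 libraries, and 0 of the 9 were called by edgeR or DESeq2 or had an unadjusted p under 0.05. Of these markers 8 had a positive log2 fold change with STAT3 loss in CD4 T cells, with a median of 0.46 against 0.017 over all genes tested. The part of such cells in the rise of Havcr2 was not tested.

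**Figure D2:**
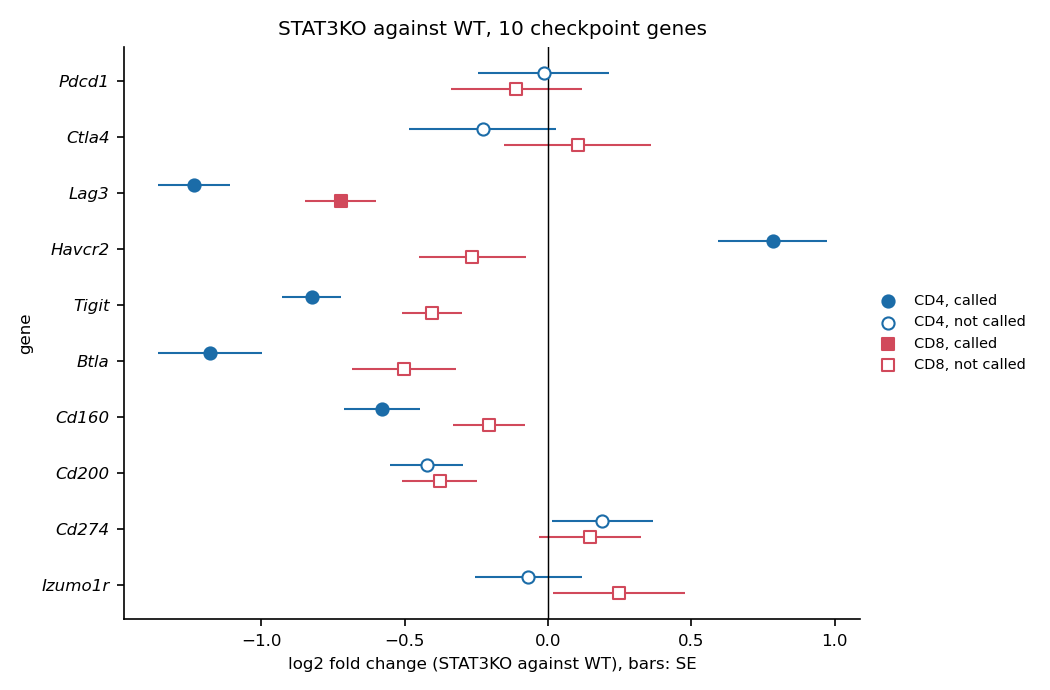
Log2 fold change of STAT3KO against WT (horizontal axis) for each checkpoint gene (vertical axis) in CD4 T cells (blue circles) and CD8 T cells (red squares), with bars of 1 SE from edgeR and 2 libraries per group. Filled symbols mark an adjusted p under 0.05, which 5 genes reached in CD4 T cells and Lag3 alone reached in CD8 T cells.

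The other checkpoint genes were not called in CD4 T cells. Cd200, whose product engages the inhibitory receptor CD200R1 on other cells, came closest. It lies at chr16:45382135-45409053 on the minus strand, and had 136 and 135 CPM in WT CD4 and 105 and 98.1 CPM in STAT3KO CD4 libraries. These groups did not overlap (log2FC -0.42, SE 0.13, 95% interval -0.72 to -0.13, edgeR adjusted p = 0.0745), and DESeq2 gave an adjusted p of 0.0274. The CD8 libraries held Cd200 at 42.1 and 45.7 CPM in WT and 29.7 and 37.9 CPM in STAT3KO libraries (log2FC -0.38, SE 0.13, edgeR adjusted p = 0.172).

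Pdcd1, which encodes PD-1, lies at chr1:94038305-94052553 on the minus strand. Its level was 340 and 233 CPM in WT CD4, 314 and 253 CPM in STAT3KO CD4, 591 and 418 CPM in WT CD8, and 494 and 441 CPM in STAT3KO CD8 libraries. The genotypes overlapped in both cell types. Its log2 fold change was -0.014 in CD4 T cells (SE 0.23, 95% interval -0.54 to 0.52, edgeR adjusted p = 0.979), and for CD8 T cells -0.11 (SE 0.23, 95% interval -0.64 to 0.42, edgeR adjusted p = 0.856). These intervals leave room for changes of either sign.

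Ctla4 lies at chr1:60909025-60915832 on the plus strand. Its level was 1433 and 1788 CPM in WT CD4, 1124 and 1627 CPM in STAT3KO CD4, 822 and 1077 CPM in WT CD8, and 805 and 1236 CPM in STAT3KO CD8 libraries. Replicate 2 was the higher one in all 4 groups, and the genotypes overlapped in both cell types. The log2 fold change was -0.23 in CD4 (SE 0.26, edgeR adjusted p = 0.629), and for CD8 T cells 0.10 (SE 0.26, edgeR adjusted p = 0.881).

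Cd274, which encodes the PD-1 ligand PD-L1 and is induced by interferon-γ, lies at chr19:29367438-29388094 on the plus strand, and 511 of its exon bases are shared with an antisense RNA gene. Its level was 183 and 154 CPM in WT CD4, 179 and 206 CPM in STAT3KO CD4, 92.3 and 97.1 CPM in WT CD8, and 86.1 and 124 CPM in STAT3KO CD8 libraries. The genotypes overlapped in both cell types, with log2FC of 0.19 in CD4 (SE 0.18, edgeR adjusted p = 0.552), and for CD8 T cells 0.15 (SE 0.18, edgeR adjusted p = 0.729).

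Izumo1r lies at chr9:14885814-14903951 on the minus strand, and was found mainly in the CD4 libraries. Its level was 57.4 and 60.6 CPM in WT CD4 and 46.3 and 66.2 CPM in STAT3KO CD4 libraries, against 3.63 and 4.59 CPM in WT CD8 and 4.39 and 5.37 CPM in STAT3KO CD8 libraries. The CD8 values rest on between 84 and 119 counts per library. Its log2 fold change with STAT3 loss was -0.068 in CD4 (SE 0.19, edgeR adjusted p = 0.859), and for CD8 T cells 0.25 (SE 0.23, edgeR adjusted p = 0.625), and the genotypes overlapped in both.

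In CD8 T cells 1 of the 10 genes was called, against 2.07% of all genes tested (1.34% higher and 0.732% lower). The median log2 fold change of the 10 genes was -0.24, against -0.0071 over all genes. The 2 libraries of each genotype did not overlap for 5 of the 10 genes (Lag3, Havcr2, Tigit, Btla and Cd200, all lower in STAT3KO), which is close to the 49.7% of all genes tested. In CD4 T cells the libraries did not overlap for 6 of the 10, against 53.5% of all genes.

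The titles of the libraries carry numbers in a pair of ranges that coincide with the replicate number, whose meaning the labels do not give, so the differences were also taken within each replicate number. In CD4 T cells Lag3 was lower by a log2 difference of -1.31 within replicate 1 and -1.16 within replicate 2, Btla by -0.94 and -1.38, Tigit by -0.79 and -0.86, and Cd160 by -0.68 and -0.47. Havcr2 was higher by 0.67 and 0.93. For Lag3 in CD8 T cells the differences were -0.92 and -0.52. Tigit, Btla and Cd200, which were not called in CD8 T cells, kept their direction there too, with -0.49 and -0.33 for Tigit, -0.32 and -0.66 for Btla, and -0.50 and -0.27 for Cd200. With the replicate number as a block, edgeR called 4 checkpoint genes in CD8 T cells in place of 1. They were Lag3, Tigit, Btla and Cd200 (edgeR adjusted p = 0.00813, 0.0171 and 0.0369 for the last 3). Over all 12428 genes tested the block raised the calls in CD8 T cells from 257 to 2258. The rise is therefore not shown to be particular to the checkpoint genes, and no label says that the numbers mark pairs. For each gene named so far in this paragraph the libraries of the genotypes did not overlap. The same direction within both numbers was therefore fixed in advance. Pdcd1 changed sign between the numbers, at -0.11 and 0.12 in CD4 and -0.26 and 0.078 in CD8 T cells. So did Cd274, at -0.034 and 0.42 in CD4 and -0.10 and 0.35 in CD8 T cells. Izumo1r changed sign in CD4 (-0.31 and 0.13) and Ctla4 in CD8 T cells (-0.030 and 0.20).

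Whether the effect of STAT3 loss differed between the cell types was tested as an interaction. In it 0 of the 10 genes and 0% of all genes tested were called by edgeR, while DESeq2 called 1 of the 10 and 188 of all 12428 genes tested. At an unadjusted p under 0.05 there were 4 of the 10 (Havcr2, Lag3, Tigit and Btla), against 7.9% of all genes. Havcr2 gave the largest difference, with an effect lower in CD8 than in CD4 T cells by -1.05 on the log2 scale (SE 0.26, 95% interval -1.66 to -0.43, edgeR adjusted p = 0.291). It was the gene that DESeq2 called (adjusted p = 0.0153), and edgeR with the replicate number as a block called it as well (adjusted p = 0.0043). That block gave calls for 403 of all 12428 genes tested in the interaction. For Lag3, Tigit and Btla the effect was less negative in CD8 T cells by 0.51, 0.42 and 0.68 on the log2 scale (edgeR adjusted p = 0.477, 0.487 and 0.543). A different effect in CD4 and CD8 T cells is therefore not shown for these genes at the threshold used.

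More of the genes were called between the cell types than between the genotypes. The comparisons of cell types use the same libraries as those above, so their values are not independent of them. In WT libraries 8 of the 10 genes were called between CD8 and CD4 T cells, 3 higher and 5 lower in CD8, against 23.8% of all genes tested (12.2% higher and 11.6% lower).

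Havcr2, Cd160 and Pdcd1 were higher in CD8 T cells of WT origin. Havcr2 was 4.45-fold higher (log2FC 2.16, SE 0.19, edgeR adjusted p = 0.000332) and Cd160 was 4.25-fold higher (log2FC 2.09, SE 0.13, edgeR adjusted p = 0.000123). Pdcd1 was 1.76-fold higher (log2FC 0.82, SE 0.23, edgeR adjusted p = 0.038), a call lost without WT CD4 replicate 2 (0.175), WT CD8 replicate 1 (0.217) or any of the 4 STAT3KO libraries (0.0555 to 0.0654), and in the fit of the WT libraries alone (0.0866). Because Havcr2 and Cd160 are also genes of NK cells, and Havcr2 of myeloid cells, the markers of these cells were read in the CD8 libraries too. The 6 NK cell markers summed to between 31.6 and 31.7 CPM in WT CD4 and between 259 and 316 CPM in WT CD8 libraries. Of the 3 that were tested Klrk1 and Eomes were higher in CD8. Klrb1c was not called, with 16.2 to 17.1 CPM in WT CD4 and 21.7 to 26.4 CPM in WT CD8 libraries. Ncr1 reached at most 0.25 CPM, and Klra4 and Klra8 were at 0 in every library. The macrophage and monocyte markers summed to between 42.2 and 124 CPM in WT CD8 libraries, with 9 of 9 positive against WT CD4 and Cd68 called. The 7 dendritic cell markers summed to between 232 and 275 CPM in WT CD8 libraries, against 14.7 to 16.7 CPM in WT CD4. Nearly all of this was Itgax, with 231 to 274 CPM in WT CD8 and 13.7 to 15.8 CPM in WT CD4 libraries. Of the 2 that were tested Itgax was called and Zbtb46, at 1.08 to 1.18 CPM in WT CD8, was not. Flt3, Siglech, Clec9a and Cd209a were at 0 in both WT CD8 libraries. The part of such cells in these differences was not tested.

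Izumo1r, Btla, Cd200, Tigit and Cd274 were lower in WT CD8 T cells. Izumo1r was lower by -3.84 on the log2 scale (SE 0.22, edgeR adjusted p = 0.000104) and Btla by -2.28 (SE 0.19, edgeR adjusted p = 0.000245). Cd200 differed by -1.63 (edgeR adjusted p = 0.000233), Tigit by -0.86 (edgeR adjusted p = 0.0011) and Cd274 by -0.83 (edgeR adjusted p = 0.0133). The call of Cd274 was lost without WT CD4 replicate 1 (0.0551) or WT CD8 replicate 1 (0.0707). Ctla4 was lower in CD8 by -0.76 without overlap between the groups, but was not called by edgeR (adjusted p = 0.0695). DESeq2 did call it (adjusted p = 0.0089). Lag3 differed by 0.094 with overlapping groups. The libraries of the cell types did not overlap for 9 of the 10 genes, against 59.3% of all genes tested.

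In STAT3KO libraries 8 of the 10 genes were called between the cell types, against 12.5% of all genes tested (5.84% higher and 6.67% lower). The higher ones in CD8 were Cd160 (log2FC 2.46, SE 0.14, edgeR adjusted p = 0.000236), Havcr2 (1.11, SE 0.19, edgeR adjusted p = 0.00993) and Lag3 (0.60, SE 0.12, edgeR adjusted p = 0.0198). Izumo1r, Btla, Cd200, Cd274 and Tigit were lower in CD8, by -3.53, -1.61, -1.59, -0.88 and -0.43 on the log2 scale. Pdcd1 (0.72, edgeR adjusted p = 0.0837) and Ctla4 (-0.43, edgeR adjusted p = 0.334) were not called by edgeR. DESeq2 called Pdcd1 (adjusted p = 0.0108) but not Ctla4 (adjusted p = 0.265). The libraries did not overlap for 9 of the 10 genes, all but Ctla4, against 58.3% of all genes tested. The calls of Lag3, Tigit, Cd274 and Havcr2 were each lost on leaving out single libraries, at adjusted p of up to 0.143, 0.183, 0.106 and 0.081, and each was lost without STAT3KO CD4 replicate 2 and without STAT3KO CD8 replicate 1.

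**Figure D3:**
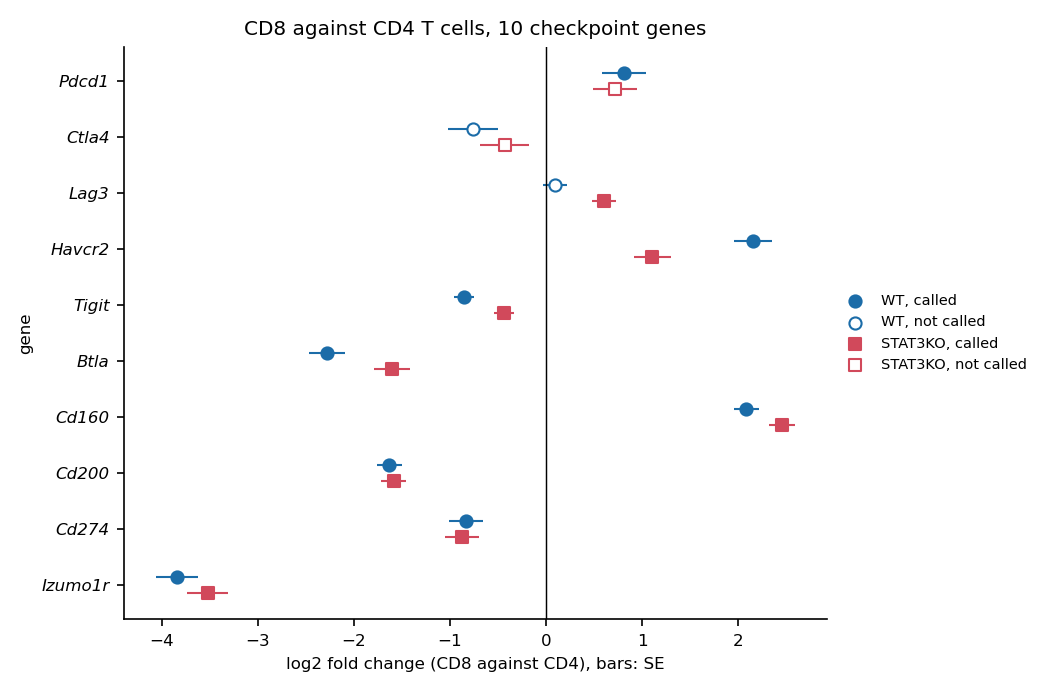
Log2 fold change of CD8 against CD4 T cells (horizontal axis) for each checkpoint gene (vertical axis) within WT libraries (blue circles) and within STAT3KO libraries (red squares), with bars of 1 SE from edgeR and 2 libraries per group. Filled symbols mark an adjusted p under 0.05. Havcr2 and Cd160 lie to the right of 0 and Izumo1r, Btla and Cd200 to the left in both genotypes.

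The ligands and competitors of these proteins were read in the same libraries. Of 14 genes for ligands and binding partners, 10 were tested, and in CD4 T cells 3 were higher (Cd86, Cd200r1 and Cd80) and 1 lower (Tnfrsf14) with STAT3 loss, while in CD8 T cells 0 were called by edgeR, 1 by DESeq2 (Cd86), and 3 had an unadjusted p under 0.05. The median log2 fold change of these 10 stood at 0.31 for CD4 and at 0.11 for CD8 T cells. A further list held 6 genes of costimulatory receptors, competitors and related ligands (Cd28, Icos, Cd226, Tnfrsf14, Tnfsf14 and Cd4). Of these, Cd226 was higher and Icos and Tnfrsf14 were lower in CD4 T cells, and Cd226 was higher in CD8 T cells. Tnfrsf14 is counted in both lists.

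On the axis of TIGIT, Cd226, the activating competitor, had 97.0 and 96.7 CPM in WT CD4 and 229 and 220 CPM in STAT3KO CD4 libraries. Cd226 rose in CD4 (log2FC 1.21, SE 0.11, edgeR adjusted p = 0.0012) while Tigit fell. Cd226 was also higher with STAT3 loss in CD8 T cells, with 266 and 250 CPM in WT and 405 and 358 CPM in STAT3KO libraries (log2FC 0.57, SE 0.11, edgeR adjusted p = 0.0457). Pvr, the ligand of both, was not called in either cell type, and Nectin2 did not reach 1 CPM in any library.

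On the axis of CTLA-4, Cd86 had 8.18 and 10.2 CPM in WT CD4 and 32.9 and 46.9 CPM in STAT3KO CD4 libraries (log2FC 2.12, SE 0.24, edgeR adjusted p = 0.00241). Cd80 had 14.9 and 15.4 CPM in WT CD4 and 31.9 and 25.2 CPM in STAT3KO CD4 libraries (log2FC 0.91, SE 0.21, edgeR adjusted p = 0.0317). Both were higher in both STAT3KO CD4 libraries, and neither was called in CD8 T cells (0.82 and 0.64, edgeR adjusted p = 0.105 and 0.15). CD80 and CD86 are best known from antigen-presenting cells, so the markers of these were read beside them. The 7 dendritic cell markers summed to between 14.7 and 16.8 CPM in the CD4 libraries, with Siglech, Clec9a and Cd209a at 0 in all of them, and 0 were called by either tool. The macrophage sums are those stated for Havcr2, and whether a few such cells contributed was not tested. Cd28 was not called in either cell type (log2FC -0.0054 for CD4 and 0.41 for CD8 T cells).

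On the axis of BTLA and CD160, their shared ligand gene Tnfrsf14 had 45.8 and 39.8 CPM in WT CD4 and 26.7 and 27.2 CPM in STAT3KO CD4 libraries. Tnfrsf14 thus fell along with both receptor genes in CD4 T cells (log2FC -0.67, SE 0.12, edgeR adjusted p = 0.0147). It was not called in CD8 T cells (-0.20, edgeR adjusted p = 0.471). Icos, a costimulatory relative of CD28, had 2325 and 3161 CPM in WT CD4 and 1234 and 1399 CPM in STAT3KO CD4 libraries (log2FC -1.06, SE 0.20, edgeR adjusted p = 0.0153).

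For Cd200, the receptor gene Cd200r1 had 12.4 and 8.55 CPM in WT CD4 and 22.4 and 22.1 CPM in STAT3KO CD4 libraries (log2FC 1.08, SE 0.19, edgeR adjusted p = 0.011). It was not called in CD8 T cells (0.66, edgeR adjusted p = 0.119). Among ligands of PD-1 and TIM-3, Pdcd1lg2 (0.43, edgeR adjusted p = 0.112) and Lgals9 (0.35, edgeR adjusted p = 0.18) were not called in CD4 T cells, and neither was called in CD8 T cells. Fgl1, a ligand of LAG-3, had 0 counts in every library, which allows up to between 0.129 and 0.149 CPM per library.

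**Figure D4:**
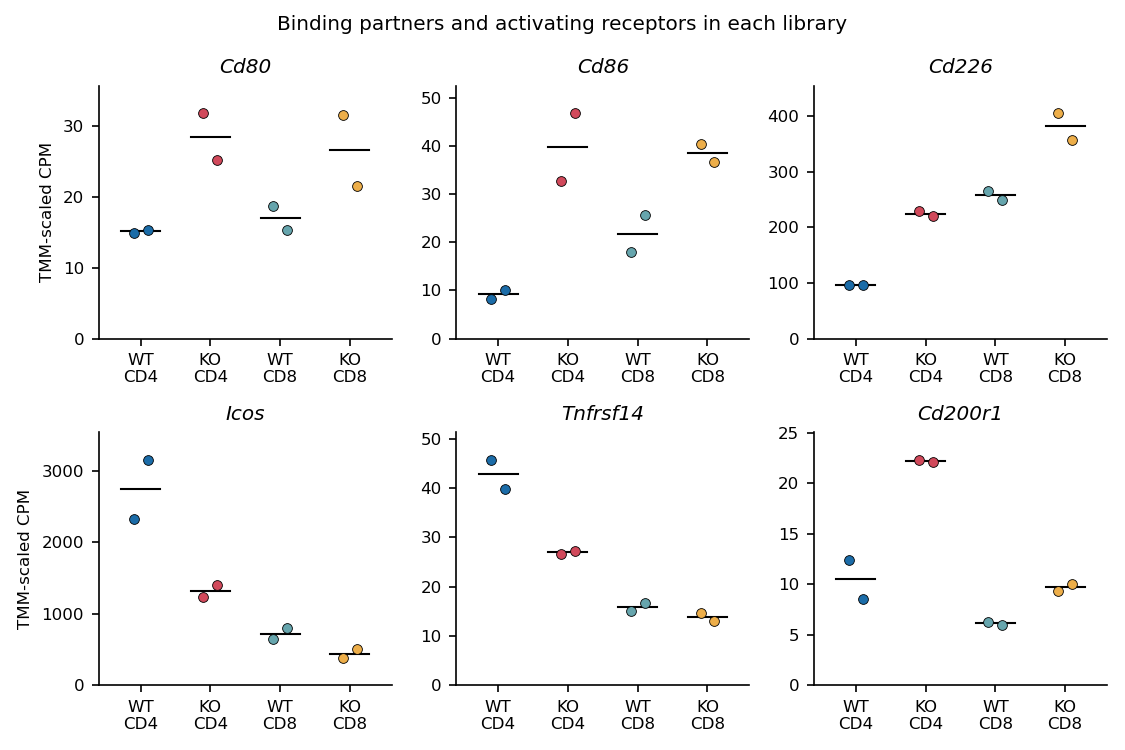
TMM-scaled CPM (vertical axis, linear, starting at 0) of 6 genes for binding partners and activating receptors in the 8 libraries, by group along the horizontal axis. Points are libraries and black lines means of 2. In CD4 T cells Cd80, Cd86, Cd226 and Cd200r1 lie higher in both STAT3KO libraries, and Icos and Tnfrsf14 lie lower.

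Of 13 further inhibitory receptors 11 were tested, and in CD4 T cells edgeR called 3 higher with STAT3 loss and 0 lower. They were Klrg1 (log2FC 2.52, edgeR adjusted p = 0.00812), Cd200r1 and Cd96 (0.71, edgeR adjusted p = 0.0089), the last a further receptor for CD155. DESeq2 called Vsir as well, which had 417 and 456 CPM in WT CD4 and 309 and 339 CPM in STAT3KO CD4 libraries (log2FC -0.43, edgeR adjusted p = 0.0581). The median of these 11 was 0.28, whereas that of the 10 checkpoint genes was -0.32. For CD8 T cells 0 of the 11 were called by edgeR and 1 by DESeq2 (Klrg1), with 2 at an unadjusted p under 0.05. Of 16 genes of signalling below inhibitory receptors, phosphatases and kinases among them, edgeR called 0 in either cell type, DESeq2 called 2 in CD4 (Cblb and Lax1) and 1 in CD8 T cells (Dgka), and 2 in each had an unadjusted p under 0.05.

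Of 20 transcriptional regulators that are known to act on checkpoint genes, 4 fell and 2 rose in CD4 T cells. Tox2 (log2FC -2.65, edgeR adjusted p = 0.000729), Bcl6 (-2.21, edgeR adjusted p = 0.00217) and Tcf7 (-1.79, edgeR adjusted p = 0.00137) fell most, ahead of Batf (-0.58, edgeR adjusted p = 0.0266). Eomes (2.03, edgeR adjusted p = 0.00551) and Prdm1, which encodes Blimp-1 (0.94, edgeR adjusted p = 0.0192), rose. In CD8 T cells Bcl6 (-1.85), Tcf7 (-1.12) and Tox2 (-0.89) fell (edgeR adjusted p = 0.0257, 0.0251 and 0.0476). Tox, a regulator known from exhausted T cells, was not called (0.49 for CD4 with edgeR adjusted p = 0.105, and 0.58 for CD8 T cells with 0.117), though DESeq2 called it in both. Among genes of interferon-γ signalling, Irf9 rose (0.60, edgeR adjusted p = 0.0234) and Socs1 fell (-0.87, edgeR adjusted p = 0.0347) in CD4 T cells, and neither was called in CD8 T cells (0.50 and -0.49, edgeR adjusted p = 0.0931 and 0.264). Bcl6, Eomes and Irf9 overlap exons of other annotated genes, and some of their reads may belong to those.

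Several of the checkpoint genes that fell are also abundant in follicular helper T cells, the CD4 T cells that assist B cells, so the markers of these cells are given beside them. Of 8 such markers 7 fell in CD4 T cells (Ascl2, Bcl6, Cxcr5, Icos, Il21, Il4 and Tox2) and Sh2d1a was not called. The 8 markers summed to between 3376 and 4143 CPM in WT CD4, 1654 and 1851 CPM in STAT3KO CD4, 841 and 1015 CPM in WT CD8, and 559 and 695 CPM in STAT3KO CD8 libraries. Icos alone was the larger part of each sum. It had 2325 to 3161 CPM in WT CD4 and 1234 to 1399 CPM in STAT3KO CD4 libraries. In CD8 libraries Icos had 646 to 797 CPM in WT and 373 to 507 CPM in STAT3KO. Fewer cells of a type and less RNA per cell cannot be told apart in these bulk libraries, and the part of such cells in the fall of Btla, Tigit, Lag3 and Cd160 was not tested. Izumo1r and Pdcd1, which follicular helper T cells also express, were not called. Regulatory T cells express many of the same checkpoint genes, and of their 8 markers 1 fell in CD4 T cells (Ikzf4) and Foxp3 was not called (0.35, edgeR adjusted p = 0.473). Their sums were between 505 and 546 CPM in WT CD4 and between 524 and 590 CPM in STAT3KO CD4 libraries.

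Cd160 and Havcr2 are also genes of NK cells. Of the 6 NK cell markers 3 were tested, and Klrk1 and Eomes were higher in STAT3KO CD4 T cells. Klrb1c was not called, with 16.2 to 17.1 CPM in WT CD4 and 15.2 to 18.6 CPM in STAT3KO CD4 libraries. The 6 markers summed to between 31.6 and 31.7 CPM in WT CD4 and between 107 and 109 CPM in STAT3KO CD4 libraries. In CD8 libraries they summed to between 259 and 316 CPM in WT and between 397 and 522 CPM in STAT3KO. There Klrb1c had 21.7 to 26.4 CPM in WT and 14.1 to 19.8 CPM in STAT3KO libraries. The low values of Ncr1, the defining marker, and of Klra4 and Klra8 given above hold for all 8 libraries, and the part of NK cells in the values of Cd160 and Havcr2 was not tested.

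Tigit, Btla and Cd200 were set against their neighbours in the 1760193 bases that span them on chromosome 16, which hold 26 genes of the tables, of which 19 were tested. In CD4 T cells 5 of the 19 were higher with STAT3 loss (Sidt1, Spice1, Cd200r1, Cd200r4 and Slc35a5) and 2 were lower (Tigit and Btla). Over all genes tested 6.54% were called higher and 5.08% lower. The called genes between Tigit and Btla were thus the higher ones, with log2FC of 0.82 for Sidt1, 1.62 for Spice1, 1.08 for Cd200r1, 1.59 for Cd200r4 and 0.53 for Slc35a5. The signs were mixed over the region, where 7 of the 19 genes had a negative log2 fold change, among them Zdhhc23 (-0.68) and Qtrt2 (-0.41), which were not called. In CD8 T cells edgeR called 0 of the 19 and DESeq2 called 2 (Tigit and Slc35a5), with 9 at an unadjusted p under 0.05. Over all 12428 genes tested there, DESeq2 called 885, and 2400 had an unadjusted edgeR p under 0.05.

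The pattern of each checkpoint gene over the 8 libraries was compared with that of 8757 genes by the root mean square distance of centred log2 CPM, as a description. The nearest genes were Ung and Cdca7 for Pdcd1 (0.0823 and 0.109), Cxcr4 and Gm14853 for Ctla4 (0.092 and 0.117), Galk1 and Ptpn12 for Lag3 (0.109 and 0.159), and Trip13 and Lamc1 for Havcr2 (0.14 and 0.157). They were Tarbp1 and Tmem131 for Tigit (0.0898 and 0.093), Znrf1 and Icos for Btla (0.145 and 0.168), Dennd3 and Palm for Cd160 (0.262 and 0.282), and Relb and Irf2bp2 for Cd200 (0.0923 and 0.112). For Cd274 they were Fam110a and Ifih1 (0.106 and 0.107), and for Izumo1r Tbc1d4 and Maf (0.286 and 0.413). No checkpoint gene had another as its nearest gene. The closest pair among the 10 were Ctla4 and Cd274, at a distance of 0.273, followed by Btla with Cd200 and Tigit with Ctla4, each at 0.348. Many other genes lay closer. Among the 8757 genes Cd274 ranked 516 in nearness to Ctla4, and Ctla4 ranked 232 to Cd274. Cd200 ranked 26 to Btla, Btla ranked 106 to Cd200, and Ctla4 ranked 1130 to Tigit.

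**Figure D5:**
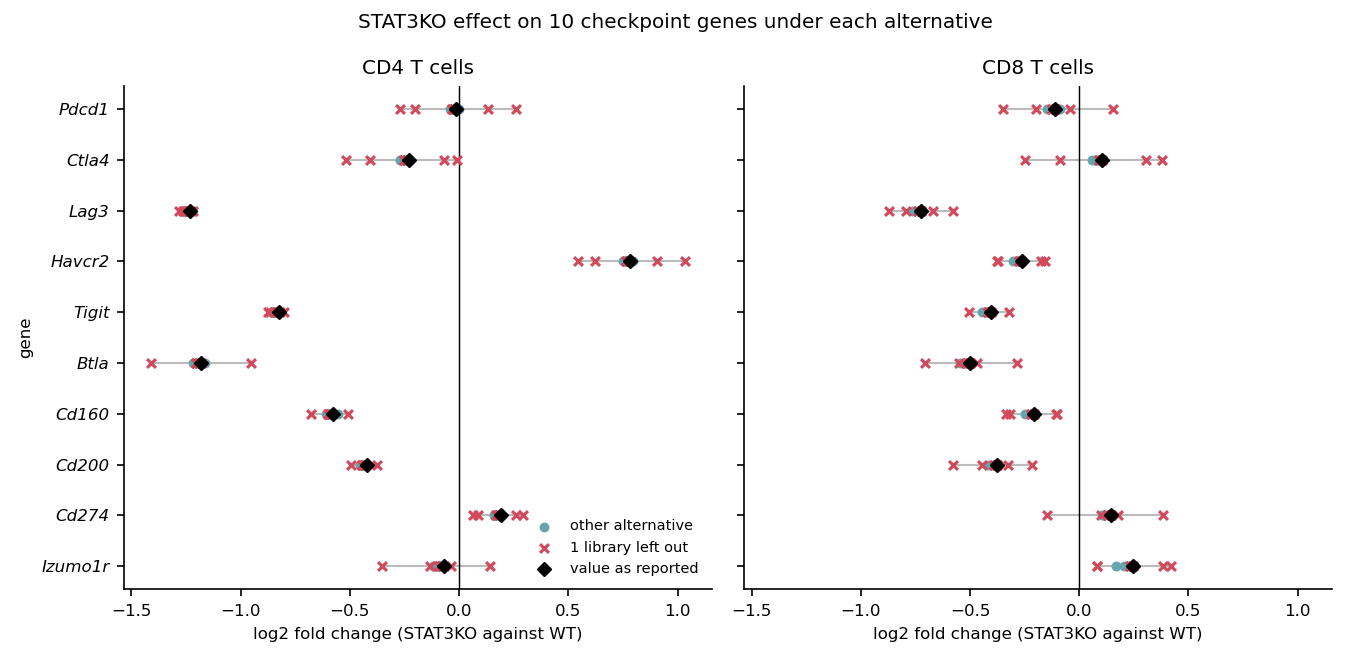
Log2 fold change of STAT3KO against WT (horizontal axis) for each checkpoint gene (vertical axis) in CD4 T cells (left) and CD8 T cells (right). Black diamonds are the values reported, blue points the other tools and scalings, and red crosses the fits with 1 library left out. In CD4 T cells the values of Lag3 stay between -1.28 and -1.22 and those of Tigit between -0.88 and -0.80, whereas those of Pdcd1 lie on both sides of 0.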

How the data were processed

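The authors aligned single-end reads to mouse genome mm10 with STAR, counted reads per RefSeq gene with HTSeq-count, and deposited a table of raw read counts and a table of RPKM values, in which each count is divided by exon length and library size. The labels and the methods name different library kits, the strand setting of the counting is not given in the sources used here, and the growth and treatment fields of the labels, which describe an adipogenic cell line, were not used. Groups come from the cell type and genotype fields of the labels.

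The filterByExpr function, with a minimum count of 10, retained 12428 genes. TMM factors of the deposited counts were 0.982 to 1.03, and the counts were fitted with a mean per group over all 8 libraries in edgeR 4.0.16 (R 4.3.3). The quasi-likelihood test, two-sided, decided the calls at a Benjamini-Hochberg adjusted p under 0.05 over all genes tested. Standard errors were derived from the F statistic. With 2 pools per group, p-values measure only the spread between these pools. The limit set by a count of 0 (3 counts, 0.129 to 0.149 CPM) covers counting error only.

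The 10 genes and all lists were chosen with earlier results of these data known, and lists are described by counts and medians, without tests of their own. Named beyond the 10 genes are Stat3, Cd4 and Cd8a as checks, direct partners and competitors, up to 3 called genes per list with the largest change, and the 2 nearest genes in pattern. Genes given outside this rule to complete a count of calls, and single marker genes, were named after their values were seen. Promoter sequences are from RefSeq (GRCm38.p6), and overlapping exons from GENCODE M21. Alternatives were DESeq2 1.42.0, RLE and total-count scaling, no filter, a replicate block, limma 3.58.1 on log2(RPKM + 1) and log2(RPKM + 0.1), fits of only the 4 libraries compared, and leaving out each library. Where this left 1 library in a group, that library was assumed to vary like the others. A result on a single further gene is not reported here.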

Additional observations from a re-analysis of the deposited data

How the results depend on the processing

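In CD4 T cells the number of checkpoint genes called was 5 as reported, 3 in the fit of only the 4 CD4 libraries, and between 2 and 5 with 1 library left out. In CD8 T cells it was 1 as reported, 2 with DESeq2, 0 in the fit of only the 4 CD8 libraries, and between 0 and 1 with 1 library left out. Over all genes tested the fit of only the 4 CD4 libraries called 995 of 11913, against 1444 of 12428 as reported. The fit of only the 4 CD8 libraries called 37 of 12058, against 257 of 12428. Leaving out any 1 library also lowered the calls over all genes in both cell types. The lost calls are therefore not shown to be particular to the checkpoint genes. In the interaction DESeq2 called 1 (Havcr2) against 0 as reported. Between cell types the count ranged from 6 to 8 in WT and from 4 to 8 in STAT3KO T cells with 1 library left out, against 8 in each. Leaving out 1 library turned the sign for Pdcd1 in CD4 (-0.27 to 0.26) and CD8 T cells (-0.35 to 0.15), Izumo1r in CD4 (-0.35 to 0.14), Ctla4 (-0.25 to 0.38) and Cd274 (-0.15 to 0.38) in CD8, Lag3 between WT cell types (-0.076 at the lowest), and Pdcd1 (-0.38 to 0.19), Cd274 (-0.32 to 0.20) and Cd200 (-0.13 to 0.22) in the interaction. None of these was called. Replicates with the same number deviated together (correlations across genes of 0.424 to 0.671), but no label says that numbers mark pairs. With the replicate block the calls were 6 in CD4, 4 in CD8 (Lag3, Tigit, Btla and Cd200), 1 in the interaction (Havcr2), and 9 and 10 between cell types. Over all 12428 genes tested the block raised the calls from 1444 to 3747 in CD4 and from 257 to 2258 in CD8 T cells. It raised them from 0 to 403 in the interaction, and between cell types from 2960 to 5232 in WT and from 1555 to 3689 in STAT3KO libraries. With the block the log2 fold change of Pdcd1 in CD4 T cells turned to 0.0012. DESeq2 called 885 genes in CD8 T cells and 188 in the interaction. The causes were not tested. Of the 6 STAT3KO calls, only those of Lag3 and Tigit in CD4 T cells held under every alternative run. Depth does not limit the checkpoint genes, whose lowest count was 84.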

Other observations

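Of the 10 checkpoint genes 5 (Pdcd1, Havcr2, Ctla4, Btla and Izumo1r) differed between replicate numbers in the same direction in all 4 groups, and the other 5 (Lag3, Tigit, Cd160, Cd200 and Cd274) did not. The share of all genes doing so was not counted. Such differences correlated between groups over all 12428 genes tested (0.424 to 0.671), so this is not shown to be particular to the checkpoint genes. Pdcd1 was higher in replicate 1 than in replicate 2 in 4 of 4 groups, by between 0.17 and 0.55 on the log2 scale, and Havcr2 by between 0.21 and 0.51. Ctla4, Btla and Izumo1r were higher in replicate 2 in 4 of 4 groups, with log2 differences (replicate 1 minus replicate 2) of -0.62 to -0.32 for Ctla4. For Pdcd1 these differences between replicates exceeded the difference between genotypes in both cell types.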
